A study of Mus musculus with 12 samples.

Results

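Keratins are the intermediate filament proteins of epithelial cells. The 10 keratin genes described here were chosen by gene name from the 52550 genes measured. Krt7, Krt8, Krt18, Krt19 and Krt20 are simple keratins, and all of them but Krt20 mark luminal cells in the mammary gland. Krt5, Krt6a, Krt14, Krt15 and Krt17 are grouped here as basal keratins, although Krt6a is also a keratin of stressed and progenitor-like epithelium. The 10 genes were followed by RNA-seq in D2A1 and D2.OR, related cell lines from mouse mammary tumors, each grown in 2D and in 3D on top of Matrigel, a gel of basement membrane proteins. Each of the 4 groups held 3 replicates, 12 libraries in all, and no group carried a transgene, a deletion or a drug treatment that the labels name. D2.OR cells are used as a model of tumor cell dormancy and D2A1 cells as their proliferating counterpart, and the lines came from separate tumors of different mice, so that a difference between them is a difference between these 2 lines only. Cells from several wells were pooled for each RNA sample. In general terms the study states that its findings were repeated biologically, but the labels do not say whether these replicates were separate cultures, so the p-values measure the spread between these samples, which may be technical in part.

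A keratin filament is built from pairs of a type I and a type II keratin, and a keratin that lacks its partner is usually degraded. In simple epithelia the main pair is Krt8 (type II) with Krt18 (type I), joined in the luminal cells of the mammary duct by Krt7 and Krt19, whereas basal and myoepithelial cells use Krt5 with Krt14, and Krt6a and Krt17 appear in stressed, healing or progenitor-like epithelium. Keratins are lost from many tumor cells that take on mesenchymal features, which often keep or gain vimentin.

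Of the 10 genes, 4 are type II (Krt5, Krt6a, Krt7, Krt8) and 6 are type I (Krt14, Krt15, Krt17, Krt18, Krt19, Krt20). In the GRCm38 annotation, the 4 type II genes lie in the keratin cluster of chromosome 15 and 5 of the type I genes in that of chromosome 11. Krt18 is the exception, a type I gene that lies beside Krt8 at the edge of the type II cluster. Krt8 (ENSMUSG00000049382.9, chr15:101996711-102004342, minus strand) and Krt18 (ENSMUSG00000023043.6, chr15:102028216-102032026, plus strand) are transcribed away from each other, with 23873 bases between their annotated starts. Krt7 (ENSMUSG00000023039.16) spans chr15:101411043-101430313 on the plus strand, and Krt20 (ENSMUSG00000035775.2) spans chr11:99428403-99438150 on the minus strand.

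The windows from 250 bases before to 50 after the annotated start of 4 simple keratins are shown, since these are the simple keratins that could be tested and Krt8 and Krt18 are neighbours whose levels parted in D2A1. The sequences are from RefSeq (GRCm38.p6), 5′ to 3′ on the strand of the gene, and capitals mark the letters TATAAA and GGGCGG on either strand.
Krt8 (chr15:102004293-102004592, - strand): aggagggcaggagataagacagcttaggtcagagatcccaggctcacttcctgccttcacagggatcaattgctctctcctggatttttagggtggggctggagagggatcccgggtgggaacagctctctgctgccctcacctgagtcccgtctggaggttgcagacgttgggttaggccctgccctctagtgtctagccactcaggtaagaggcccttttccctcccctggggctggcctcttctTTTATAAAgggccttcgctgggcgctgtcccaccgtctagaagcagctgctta
Krt18 (chr15:102027966-102028265, + strand): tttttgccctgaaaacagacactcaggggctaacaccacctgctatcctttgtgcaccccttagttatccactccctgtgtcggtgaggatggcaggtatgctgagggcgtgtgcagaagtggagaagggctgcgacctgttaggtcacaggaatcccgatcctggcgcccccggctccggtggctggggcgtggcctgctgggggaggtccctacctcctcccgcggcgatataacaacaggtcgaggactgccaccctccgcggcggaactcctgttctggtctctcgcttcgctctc
Krt7 (chr15:101412153-101412452, + strand): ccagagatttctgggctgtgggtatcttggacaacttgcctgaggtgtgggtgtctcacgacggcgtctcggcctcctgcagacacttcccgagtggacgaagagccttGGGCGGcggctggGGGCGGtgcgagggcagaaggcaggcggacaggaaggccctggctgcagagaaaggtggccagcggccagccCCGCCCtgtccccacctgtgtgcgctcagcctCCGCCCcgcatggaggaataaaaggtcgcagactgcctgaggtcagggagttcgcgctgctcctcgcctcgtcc
Krt20 (chr11:99438104-99438403, - strand): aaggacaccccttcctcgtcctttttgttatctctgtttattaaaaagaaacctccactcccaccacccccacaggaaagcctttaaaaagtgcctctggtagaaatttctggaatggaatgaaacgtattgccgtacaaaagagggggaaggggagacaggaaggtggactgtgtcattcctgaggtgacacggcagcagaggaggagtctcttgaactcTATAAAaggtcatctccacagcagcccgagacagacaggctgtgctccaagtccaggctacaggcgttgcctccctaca
Krt18 and Krt7 held 17 and 21 CpG pairs in these 300 bases, and Krt8 and Krt20 held 6 each, against a median of 7 over 32851 RefSeq promoter windows of the same length. Krt8 held TATAAA on both strands in 1 overlapping run at its annotated start, and Krt20 held it 29 bases before the start. TATAAA was found in 13.6% of all windows. Krt7 held GGGCGG 4 times, against 35.7% of windows with at least 1 match. CACCC was found in all 6 keratin windows at hand (those of Krt5 and Krt14 as well) and in 57.5% of all windows, and CCAAT (37.4% of all windows), TGANTCA (7.81%) and AACCNGTT (2.09%) in none of the 6. These matches are descriptions of letters and not of factor binding. The RefSeq starts of Krt7 and Krt14 lay 1360 and 1518 bases from the gene starts in the files, those of Krt20 and Krt5 3 and 14 bases, and those of Krt8 and Krt18 were the same.

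Library totals ranged from 47589611 to 73325069 expected counts, with a median of 61747126. The replicate number is the batch number, and each batch was sequenced on its own lane. Batch 1 stood apart: on the second principal component of log2 CPM (counts scaled to library size), which held 10.2% of the variance against 70.3% for the component that separated the lines, batch 1 had the highest score in 4 of 4 groups. Results that rest on batch 1 are therefore given with and without it. Of the 10 keratins, 7 passed the filter on low counts, and Krt5, Krt17 and Krt19 did not. Krt7, Krt6a, Krt14 and Krt15 were at trace levels in D2A1 and passed because of their counts in D2.OR, so the number of tested keratins that differ between the lines is in part fixed by the filter.

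The keratin transcripts of D2.OR were those of the luminal pair, Krt8 and Krt18, and among the 10 keratins the transcripts of D2A1 were those of Krt18 with almost no Krt8. Krt8 and Krt18 made up 93.4% to 98.9% of the summed level of the 10 keratins in the 6 D2.OR libraries and 98.4% to 99.9% in the 6 D2A1 libraries, in TPM (RSEM's transcript level, scaled for gene length and to the same total in every library). The basal keratins made up 0.229% to 2.8% in D2.OR and 0% to 0.609% in D2A1. The summed level of the 10 was 1152 to 1719 TPM in D2.OR in 2D and 377 to 893 TPM in 3D. In D2A1 it was 206 to 297 TPM in 2D and 95.3 to 221 TPM in 3D. Of the TPM of all keratin genes in a library, the 10 genes held 95.2% to 98.7% in D2.OR, 93.5% to 97.3% in D2A1 in 2D, and 93.4%, 83% and 81.8% in D2A1 in 3D, where Krt80, described further on, was at 9.48 to 13.1 TPM.

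**Figure D1:**
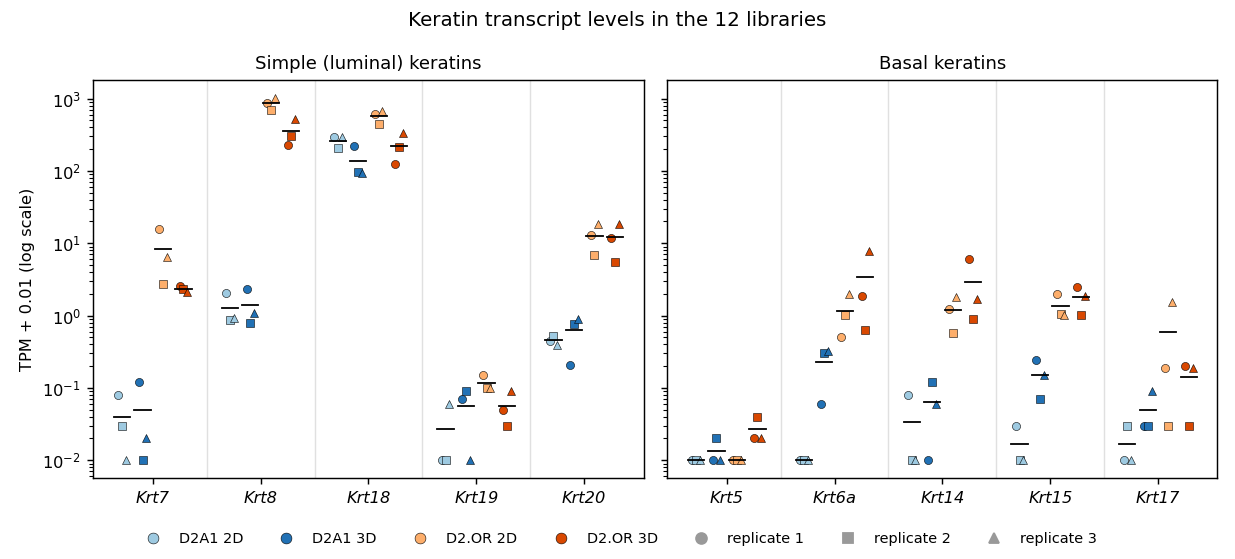
Level of each of the 10 keratins in each of the 12 libraries, as TPM + 0.01 on a log scale, with simple keratins on the left and basal keratins on the right. Colors are the 4 groups, symbols the replicates and black bars the group means. Krt8 is near 1 TPM in D2A1 and between 227 and 1022 TPM in D2.OR, Krt18 is above 92 TPM in every library, and no basal keratin exceeds 7.77 TPM.

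Krt8, the type II partner of the luminal pair, was measured at 2.02, 0.87 and 0.93 TPM in D2A1 in 2D and at 855, 700.2 and 1022 TPM in D2.OR in 2D (replicates 1 to 3). In 3D it was at 2.31, 0.78 and 1.08 TPM in D2A1 and at 227, 305 and 527 TPM in D2.OR. Every D2.OR library was far above every D2A1 library, and the D2A1 values were low but above 0, resting on 50 to 158 counts in a library. In 2D the mean CPM was 737-fold higher in D2.OR, a log2-fold change of 9.56 (SE 0.55, n = 3 libraries in each group, edgeR's quasi-likelihood test with Benjamini-Hochberg adjustment, adjusted p = 2.24e-06). In 3D the ratio was 255, a log2-fold change of 8.05 (SE 0.52, edgeR, adjusted p = 4.37e-06). Within batches, the 2D ratio of the lines was 457, 856 and 1148 and the 3D ratio 95.4, 364 and 468, so that both were lowest in batch 1. The expected count of Krt8 was not whole in 7 of the 12 libraries, so RSEM shared some of its reads with similar genes, and how many is not known from these values.

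Krt18, the type I partner, was the keratin that both lines transcribed at a high level. In 2D it was at 294, 204 and 290 TPM in D2A1 and at 606, 440 and 666 TPM in D2.OR. The ranges did not overlap in 2D, and the mean CPM was 2.38-fold higher in D2.OR, with a log2-fold change of 1.25 (SE 0.38, n = 3 in each group, edgeR, adjusted p = 0.022) and within-batch folds of 2.25, 2.38 and 2.5. The call was lost in 7 of 15 fits that left libraries out, with log2-fold changes of 1.2 to 1.29 and adjusted p up to 0.152 (edgeR).

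In 3D Krt18 was at 218, 97.1 and 92.7 TPM in D2A1 and at 125, 214 and 333 TPM in D2.OR. The ranges overlapped, because D2A1 was above D2.OR in batch 1 and below it in batches 2 and 3. The difference did not pass the test (log2-fold change 0.74, SE 0.39, edgeR, adjusted p = 0.133), and the within-batch differences in log2 CPM were -0.83, 1.1 and 1.82. Without batch 1 the log2-fold change was 1.44 (edgeR, adjusted p = 0.000428), where 29.7% of genes were called higher. The same held without the batch 1 library of D2A1 in 3D alone (1.17, adjusted p = 0.0228) or without that of D2.OR alone (1.23, adjusted p = 0.00439).

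The balance within the pair was unlike in the lines. In D2.OR the TPM ratio of Krt8 to Krt18 was 1.41, 1.59 and 1.53 in 2D and 1.82, 1.43 and 1.58 in 3D. In D2A1 it was 0.00686, 0.00426 and 0.00321 in 2D and 0.0106, 0.00803 and 0.0116 in 3D. The ratio in D2.OR stayed within a narrow range while the summed level of the keratins varied from 377 to 1719 TPM. Summed over the 10 genes, type II keratins were at 704 to 1030 TPM and type I keratins at 448 to 689 TPM in D2.OR in 2D, and at 232 to 537 TPM and 145 to 355 TPM in 3D. In D2A1, type II keratins came to 0.89 to 2.47 TPM beside 93.9 to 295 TPM of type I keratins over both cultures, a ratio of 0.0032 to 0.0149. These sums cover the 10 genes only. With Krt80, a further type II keratin that both lines transcribed, the ratio of type II to type I was 0.0202 to 0.155 in D2A1 and 1.42 to 1.64 in D2.OR. Transcript levels do not show how much Krt18 protein is kept.

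**Figure D2:**
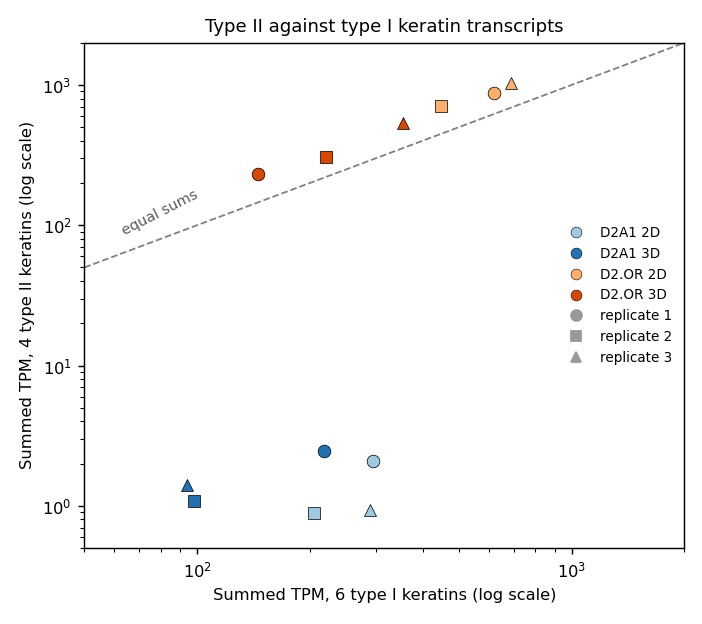
Summed TPM of the 4 type II keratins against that of the 6 type I keratins, 1 point for each of the 12 libraries, both axes on a log scale, with the dashed line at equal sums. Keratins outside the 10, such as Krt80, are not in the sums. The 6 D2.OR libraries lie just above the line at ratios of 1.39 to 1.59, and the 6 D2A1 libraries lie below it at ratios of 0.0032 to 0.0149.

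Around the pair, 6 genes within 100 kb were read beside it. Krt4 and Krt78 were at 0.08 TPM or less in every library. Eif4b, a translation initiation factor, was at 293 to 426 TPM in D2A1 and 368 to 437 TPM in D2.OR in 2D, a log2-fold change of 0.34 (SE 0.15, edgeR, adjusted p = 0.0841), and of 0.12 in 3D (adjusted p = 0.514). Spryd3 was called higher in D2.OR in both cultures, with log2-fold changes of 0.33 in 2D (SE 0.1, edgeR, adjusted p = 0.0203) and 0.5 in 3D (SE 0.1, adjusted p = 0.00255). Tns2, a focal adhesion protein, was at 0.42 in 2D (SE 0.22, edgeR, adjusted p = 0.137) and was called higher in 3D, at 1.35 (SE 0.22, adjusted p = 0.000907). Krt79, a keratin gene of the same stretch, had 7 counts in D2.OR and 1 count in D2A1 in 2D (edgeR, adjusted p = 0.218). In 3D it had 692 counts against 0 and was called higher in D2.OR (edgeR, adjusted p = 0.000645). The mean CPM was at least 82.3-fold higher against a floor of 3 counts in each library. The counts were very uneven over the D2.OR libraries in 3D, so this bound holds for their mean only. Krt79 passed the filter through that group alone, so its call is in part fixed by the filter.

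Krt7, a type II keratin of ductal epithelium, was at 0.07, 0.02 and 0 TPM in D2A1 in 2D and at 15.8, 2.71 and 6.34 TPM in D2.OR in 2D. In 3D it was at 0.11, 0 and 0.01 TPM in D2A1 and at 2.53, 2.3 and 2.13 TPM in D2.OR. Krt7 was present in every D2.OR library and at trace level in every D2A1 library, and in D2.OR it was highest in batch 1 in 2D. The ratio of mean CPM of the lines was 194 in 2D (log2-fold change 7.59, SE 0.64, edgeR, adjusted p = 2.27e-05) and 105.5 in 3D (6.81, SE 0.68, adjusted p = 5.58e-05), and without batch 1 the log2-fold changes were 8.64 and 7.39 (edgeR, adjusted p = 6.39e-05 and 0.000147). The D2A1 side of these ratios rests on 10 counts in 2D and 6 counts in 3D over 3 libraries. Without batch 1, D2A1 was left at 0.02 and 0 TPM in 2D and at 0 and 0.01 TPM in 3D, so the values of those fits do not size the difference.

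Krt20, a type I keratin best known from intestinal and urothelial cells, was at 0.43, 0.52 and 0.38 TPM in D2A1 in 2D and at 12.9, 6.82 and 18.5 TPM in D2.OR in 2D. In 3D it was at 0.2, 0.76 and 0.9 TPM in D2A1 and at 11.8, 5.53 and 18.5 TPM in D2.OR. The lines did not overlap in either culture, and within D2.OR each batch had about the same level in both cultures. Krt20 was 31.3-fold higher in D2.OR in 2D (log2-fold change 4.85, SE 0.57, edgeR, adjusted p = 0.000157) and 18.7-fold higher in 3D (4.16, SE 0.55, adjusted p = 0.00027). Within batches the folds were 30.3, 13.8 and 48.5 in 2D and 49.3, 6.86 and 19.7 in 3D, and without batch 2 the 3D log2-fold change was 4.86 (edgeR, adjusted p = 0.00312). Krt19, the type I keratin commonly used as a luminal marker, was at 0.14 TPM or less in every library, on 0 to 6 counts, and was not tested. Its sum was 14 counts in D2.OR and 1 count in D2A1 in 2D, a ratio of 13.8 with an exact 95% counting interval of 2.1 to 583, and 6 and 4 counts in 3D. Counting intervals here cover counting error only.

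The basal keratins were low in both lines. Krt5, the defining type II keratin of basal cells, had 0 counts in all 6 libraries in 2D and at most 2 counts in a library in 3D. Krt14, its usual partner, was at 0.07, 0 and 0 TPM in D2A1 in 2D and at 1.22, 0.57 and 1.81 TPM in D2.OR in 2D, and at 0, 0.11 and 0.05 TPM against 6.02, 0.9 and 1.71 TPM in 3D. Thus Krt14 was above D2A1 in every D2.OR library, yet its highest D2.OR value was far below the lowest Krt8 value of that line. The ratio of Krt14 between the lines in 2D, on 197 against 2 counts, was 97 with an exact 95% counting interval of 26.5 to 807 (log2-fold change 6.37, SE 1.2, edgeR, adjusted p = 0.00212). It was also called in 2D without batch 1 (edgeR, adjusted p = 0.00136), where D2A1 had 0 counts left and the fitted value of 9 is no bound. In 3D, on 461 against 10 counts, it was 49.4 (5.26, SE 0.97, edgeR, adjusted p = 0.00166), with within-batch folds of 154, 6.29 and 21.5. D2A1 was at 0 TPM in batch 1, so the fold of 154 depends on the prior count of 2 and does not size the difference. The 3D log2-fold change was 3.92 without batch 1 (edgeR, adjusted p = 0.00316), 7.02 without batch 2 (0.0099) and 5.27 without batch 3 (0.0293).

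Krt6a, a keratin of stressed and progenitor-like epithelium, was listed at 0 in D2A1 in 2D in every replicate and was at 0.5, 1.01 and 1.97 TPM in D2.OR. In 3D it was at 0.05, 0.29 and 0.31 TPM in D2A1 and at 1.84, 0.63 and 7.77 TPM in D2.OR. Every D2.OR library was above every D2A1 library in the same culture, with a wide spread in D2.OR in 3D. Set against a floor of 3 counts in each library, D2.OR had at least 28.2-fold higher Krt6a in 2D (edgeR, adjusted p = 0.00174), and in 3D it was 15.5-fold higher (log2-fold change 3.69, SE 0.77, adjusted p = 0.00569), with within-batch folds of 25.3, 2.04 and 22.9. The 3D log2-fold change was 3.21 without batch 1 (edgeR, adjusted p = 0.019) and 4.81 without batch 2 (0.00254), and the call was lost without batch 3 (3.03, adjusted p = 0.0831). The expected count of Krt6a was not whole in 7 libraries and that of Krt14 in 4, so RSEM shared some of their reads with other genes. How many is not known from these values, so their levels carry some uncertainty.

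Krt15, a type I keratin of basal and progenitor cells, was at 0.02, 0 and 0 TPM in D2A1 in 2D and at 1.96, 1.04 and 1 TPM in D2.OR in 2D. In 3D it was at 0.23, 0.06 and 0.14 TPM in D2A1 and at 2.51, 1.02 and 1.88 TPM in D2.OR. The lines did not overlap in either culture. In 2D the ratio, on 221 against 1 count, was 218 with an exact 95% counting interval of 38.7 to 8636 (log2-fold change 7.27, SE 0.56, edgeR, adjusted p = 1.34e-05), and in 3D it was 14.3 (3.81, SE 0.37, adjusted p = 4.64e-05). Krt17, a keratin of basal cells and healing epidermis, was not tested. It was at 0.08 TPM or less in D2A1 and at 0.18, 0.02 and 1.55 TPM in D2.OR in 2D, where 67 of 79 counts came from batch 3, so that the lines overlapped.

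In all, 7 of the 10 keratins were called higher in D2.OR in 2D and none lower, where 25.4% of the 16823 genes tested were called higher and 49.8% were called in either direction. In 3D, 6 of the 10 were called higher and none lower, where 27.7% of genes were called higher and 53.8% in either direction. The TPM ranges of the lines did not overlap for 8 of the 10 in 2D and for 6 of the 10 in 3D, all with D2.OR higher. In 2D these were the 7 tested keratins and Krt19, which did not pass the filter and rests on 14 against 1 counts. Over the 16823 genes tested, the ranges did not overlap for 52.8% in 2D (22.1% with D2.OR higher) and for 57.4% in 3D (29.1% with D2.OR higher). Without any filter on low counts, all 10 keratins were fitted and 8 in 2D and 6 in 3D were called higher, where 14.1% and 15.2% of genes were called higher. The keratin added in 2D was Krt17 (log2-fold change 5.41, edgeR, adjusted p = 0.00545), whereas Krt19 (3.45, adjusted p = 0.0902) and Krt5 were not called.

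**Figure D3:**
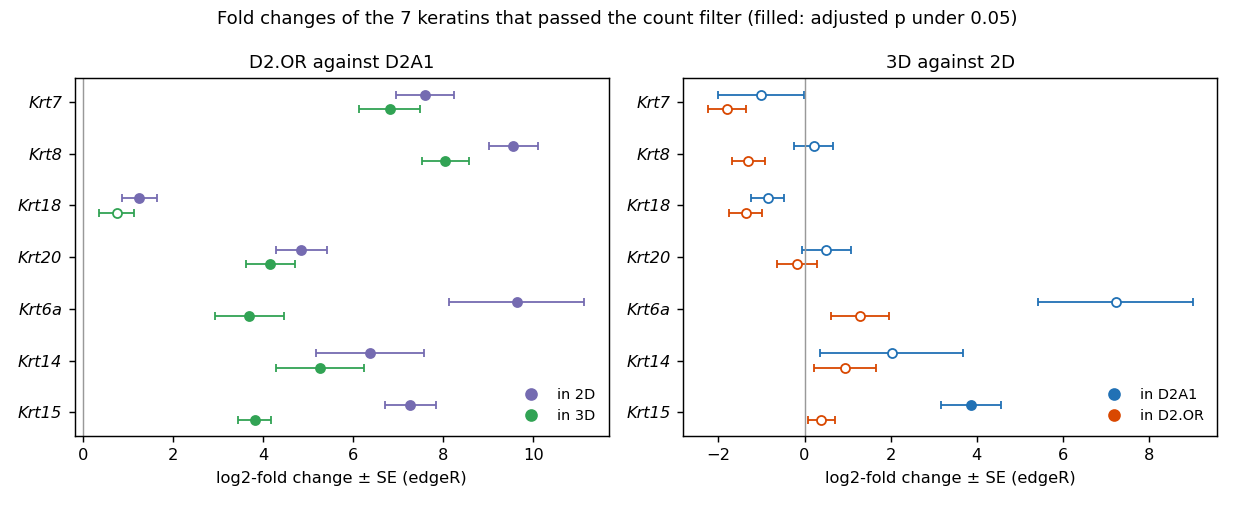
log2-fold change of the 7 keratins that passed the count filter, with bars of 1 SE (edgeR), for D2.OR against D2A1 on the left and 3D against 2D on the right. Filled points have an adjusted p under 0.05. Krt6a had 0 counts in D2A1 in 2D, so its points for D2.OR against D2A1 in 2D and for 3D against 2D in D2A1 are fitted values that depend on the model and are no bound. All points on the left lie above 0, with Krt18 nearest to 0 at 1.25 in 2D and 0.74 in 3D, and on the right only Krt15 in D2A1 is filled.

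The second question was whether culture in 3D went with other keratin levels. In D2.OR, Krt8, Krt18 and Krt7 had lower values in 3D in each batch, yet none of the 7 keratins tested passed the main test. Mean Krt8 was 859 ± 161 TPM in 2D and 353 ± 156 TPM in 3D (SD, n = 3), a log2-fold change of -1.31 (SE 0.38, edgeR, adjusted p = 0.125). Mean Krt18 was 570.3 ± 117 TPM in 2D and 224 ± 104 TPM in 3D, a log2-fold change of -1.37 (SE 0.38, adjusted p = 0.115). Mean Krt7 was 8.28 ± 6.75 TPM in 2D and 2.32 ± 0.201 TPM in 3D, a log2-fold change of -1.8 (SE 0.45, adjusted p = 0.0892). For all 3 genes the ranges of the cultures did not overlap.

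The size of the difference depended on the batch. From 2D to 3D in D2.OR, log2 CPM differed by -2.04, -1.23 and -0.96 for Krt8, by -2.41, -1.07 and -1.01 for Krt18 and by -2.62, -0.88 and -1.94 for Krt7 in batches 1 to 3. Batch 1 thus had the largest difference of the 3 batches for each of the 3 genes. Without batch 1, Krt8 (-1.09, edgeR adjusted p = 0.00436) and Krt18 (-1.04, adjusted p = 0.0147) were called lower in 3D, where 4.7% of genes were called lower, and Krt7 was at -1.43 (adjusted p = 0.0637). DESeq2's likelihood-ratio test called Krt8 (adjusted p = 0.0216), Krt18 (0.00933) and Krt7 (0.00683) lower, where it called 3.81% of genes lower. The main test called 0.785% of genes lower in this comparison (1.62% in either direction, and 2967 genes at an unadjusted p under 0.05). In bulk RNA, fewer cells that express a gene and less of its RNA per cell cannot be told apart.

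**Figure D4:**
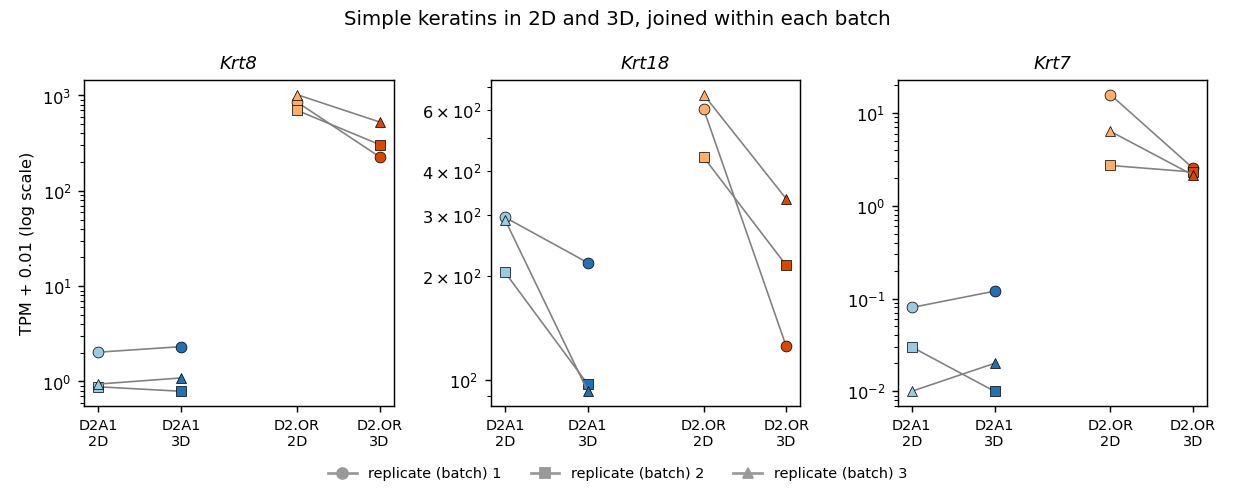
TPM + 0.01 on a log scale of Krt8, Krt18 and Krt7 in 2D and 3D for each line, with lines joining the libraries of a batch (symbols). In D2.OR each of the 3 batches is lower in 3D than in 2D for each gene, by the most in batch 1, whereas in D2A1 Krt8 is between 0.78 and 2.31 TPM in both cultures and Krt18 is lower in 3D by different amounts in the 3 batches.

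For the other tested keratins of D2.OR the cultures overlapped. Krt20 had a mean of 12.7 ± 5.83 TPM in 2D and 12 ± 6.51 TPM in 3D (log2-fold change -0.18, edgeR, adjusted p = 0.879). Krt6a (1.16 and 3.41 TPM), Krt14 (1.2 and 2.88 TPM) and Krt15 (1.33 and 1.8 TPM) had higher means in 3D, with overlapping ranges and adjusted p of 0.368, 0.54 and 0.543 (edgeR). Together the basal keratins came to 2.64 to 6.33 TPM in 2D and 2.6 to 11.5 TPM in 3D. The cultures of D2.OR did not overlap for 5 of the 10 keratins, the other 2 being Krt19 and Krt5, both at 6 counts or fewer in each library. Over the 16823 genes tested, the cultures of D2.OR did not overlap for 20.6%, with 7.58% lower in 3D.

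In D2A1 the cultures overlapped for Krt8, which had a mean of 1.27 ± 0.647 TPM in 2D and 1.39 ± 0.811 TPM in 3D (log2-fold change 0.21, SE 0.45, edgeR, adjusted p = 0.784). Krt18 had a mean of 263 ± 50.8 TPM in 2D and 136 ± 71 TPM in 3D. The cultures overlapped, since the batch 1 library in 3D (218 TPM) was above the batch 2 library in 2D (204 TPM), and the log2-fold change of -0.86 did not pass the test (SE 0.38, edgeR, adjusted p = 0.157). Log2 CPM of Krt18 differed by -0.41, -0.91 and -1.5 in the 3 batches. Without batch 1 the log2-fold change was -1.19 (edgeR, adjusted p = 0.00236), where 18.9% of genes were called lower.

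Of the 10 keratins, Krt15 was the 1 called in D2A1 and was higher in 3D, from 1 count over 3 libraries in 2D to 24 counts in 3D (log2-fold change 3.86, SE 0.7, edgeR, adjusted p = 0.0359), where 1.37% of genes were called higher and 3.48% in either direction. The call was held by 11 of 23 alternative fits, with adjusted p from 0.00136 to 0.538. Krt6a went from 0 counts in 2D to 4, 25 and 28 counts in 3D and did not pass (edgeR, adjusted p = 0.0621), though it was called in 6 of 23 alternative fits. These 2 keratins were also the ones whose cultures did not overlap in D2A1, which held for 24.8% of the genes tested (9.56% higher in 3D). Both were at 0.31 TPM or less in every D2A1 library.

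Whether the culture difference itself differed between the lines was tested by the interaction of line and culture, and no keratin passed. The interaction of Krt8 was -1.52 on the log2 scale (SE 0.59, edgeR, adjusted p = 0.232) and that of Krt18 -0.51 (adjusted p = 0.63). For Krt15 it was -3.46 (SE 0.79, edgeR, adjusted p = 0.112), on 1 count in D2A1 in 2D. It ran from -5.18 to 0.07 over the alternatives, so its size is not settled. The interaction of Krt6a, which had 0 counts in D2A1 in 2D so that its size cannot be given, had an adjusted p of 0.231 (edgeR). Over all genes, 0.0238% were called and 2997 had an unadjusted p under 0.05, and DESeq2 (6.08% of genes called) called 2 keratins, Krt6a (adjusted p = 0.0254) and Krt15 (adjusted p = 0.0261). Without batch 1 the interaction of Krt8 was -1.26 (edgeR, adjusted p = 0.0146, 17.8% of genes called). That of Krt15 was called without the batch 1 library of D2A1 in 2D (adjusted p = 0.0223), a fit that leaves 0 counts of Krt15 in that group.

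Ordered by mean level, Krt8 and Krt7 shared the same order of groups, D2.OR in 2D, D2.OR in 3D, then D2A1, with no overlap between the first 3 neighbours and an overlap between the D2A1 cultures. For Krt18, D2.OR in 2D was alone at the top, and the neighbours below it (D2A1 in 2D, D2.OR in 3D and D2A1 in 3D) overlapped in turn. For Krt6a, Krt14 and Krt15 the cultures of D2.OR overlapped and lay above D2A1.

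The genes whose log2 CPM followed Krt8 most closely over the 12 libraries, among 10251 genes compared, were Kcnf1 (Pearson r = 0.996), the amino acid transporter Slc43a1 (0.995) and the protease-activated receptor F2rl1 (0.995). For Krt7 they were Ncoa7, Rab8a and Sdhaf2 (0.983 to 0.984) and for Krt20 Arap2, Zhx2 and Ptk2b (0.973 to 0.975). Krt18 was followed less closely, by Itch (0.924), Zfp532 (0.908) and Nbas (0.905). Krt8 correlated with Krt7 at 0.979, with Krt20 at 0.945 and with its own partner Krt18 at 0.636. The 12 points share line, culture and batch, and most of the variance is between the lines, so these values describe the libraries only.

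Among the other 44 keratin genes, 9 passed the count filter and 6 exceeded 1 TPM in any library. In 2D, 6 of these 44 were called higher in D2.OR, 1 lower and 2 not, and 35 were not tested, beside 25.4% of all genes called higher and 49.8% in either direction. Krt80, a type II keratin, was present in both lines, at 4.92 to 16.1 TPM in D2A1 and 7.13 to 13.9 TPM in D2.OR (2D log2-fold change 0.59, edgeR, adjusted p = 0.252), and it exceeded Krt8 in every D2A1 library. Krt16, a partner of Krt6a, was at 8.25, 4.17 and 7.85 TPM in D2.OR and at 0.17, 0.04 and 0.04 TPM in D2A1 in 2D (6.41, SE 0.59, adjusted p = 3.67e-05), on 11 counts in D2A1, and in D2A1 it was higher in 3D (4.16, SE 0.59, adjusted p = 0.0213). Krt13 was at 1.05 to 2.47 TPM in D2.OR and at 0.1 TPM or less in D2A1 in 2D (5.13, adjusted p = 0.00102), on 6 counts in D2A1. Krt16 and Krt13 had too few counts in D2A1 in 2D to pass the filter by that group. The number of other keratins called higher is thus in part fixed by the filter.

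Krt10, a keratin of differentiating epidermis, went the other way. It was at 3.04 to 5.65 TPM in D2A1 and at 0.07 TPM or less in D2.OR over both cultures (2D log2-fold change -6.96, SE 0.71, edgeR, adjusted p = 6.71e-05). Krt79 was at 0.04 TPM or less in 9 libraries and at 0.15, 6.86 and 2.13 TPM in D2.OR in 3D. It was called higher in 3D than in 2D in D2.OR (5.72, SE 0.96, adjusted p = 0.0421), while Krt8, which lies in the same stretch of chromosome 15, had lower values there. Krt79 passed the filter through D2.OR in 3D alone, so this call is in part fixed by the filter.

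Keratin filaments are anchored at desmosomes by plakins and plakophilins, and the genes for these linkers were read beside the keratins. Of the 11 linker genes found, 8 were called higher in D2.OR in 2D, 1 lower and 2 not, and in 3D 8 were called higher and 3 not. Over all genes 25.4% were called higher and 49.8% in either direction in 2D, and 27.7% and 53.8% in 3D. Dsp, the plakin that ties keratins to the desmosome, was at 0.08 to 0.14 TPM in D2A1 and 20.3 to 28.3 TPM in D2.OR in 2D (log2-fold change 8, SE 0.41, edgeR, adjusted p = 1.24e-06). Pkp1, a plakophilin, was also called higher (log2-fold change 8), on 57710 counts in D2.OR against 208 in D2A1. The desmosomal cadherins Dsg2 and Dsc2 were called higher as well, at 8.63 to 12.2 TPM and 1.42 to 2.11 TPM in D2.OR, with 4 counts and 1 count in D2A1, too few to size the difference, so that both passed the filter only through D2.OR. Dst, a plakin of the hemidesmosome and cytoskeleton, was lower in D2.OR (-0.57, adjusted p = 0.00616). In D2A1, 3 of the 11 (Dsp, Plec and Pkp3) were called higher in 3D, and in D2.OR none was called in either direction, where 1.37% of genes were called higher in D2A1 and 1.62% in either direction in D2.OR.

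Markers of other cell states were read in the same comparisons, in which 25.4% of genes were called higher in 2D and 27.7% in 3D. Of 8 epithelial surface genes, 4 were called higher in D2.OR in 2D, none lower, 2 were not called and 2 were not tested, with summed levels of 12.5 to 17.3 TPM in D2A1 and 40.8 to 209.9 TPM in D2.OR in 2D. In 3D the sums overlapped, at 10.8 to 23.2 TPM and 17.1 to 73.3 TPM. Cdh1, the epithelial cadherin, was at 0.02 to 0.28 TPM in D2A1 and at 183, 22.2 and 23 TPM in D2.OR in 2D (log2-fold change 9.81, SE 0.33, edgeR, adjusted p = 1.23e-07), highest in batch 1. It was also called lower in 3D than in 2D in D2.OR (-1.36, SE 0.21, edgeR, adjusted p = 0.0215). Without batch 1 these 2 differences were 9.6 (edgeR, adjusted p = 4.43e-07) and -1.17 (adjusted p = 0.00436). Epcam (784 against 5 counts), Prom1 (1503 against 14) and Cldn4 (192 against 7) were the other 3 called higher in 2D. Their counts lay nearly all in D2.OR, so they passed the filter through that line and their calls are in part fixed by it, as for Esrp1, Ehf and Lum. In 3D, 3 were called higher, 2 were not called and Cldn3, a claudin, was called lower (-1.98, SE 0.47, edgeR, adjusted p = 0.00661). Of 19 epithelial regulators, 7 were called higher in 2D, 1 lower, 6 not and 5 were not tested, beside 49.8% of all genes called in either direction, and in 3D 5 were called higher, 1 lower and 8 not. By p the first in 2D were the splicing regulators Esrp1 (381 against 5 counts) and Esrp2 (log2-fold change 2.04) and the factors Ehf (109 against 0 counts) and Tfap2a (0.91). The 1 called lower was Grhl1 (-1.05, SE 0.3, edgeR, adjusted p = 0.0187). The summed levels of the regulators overlapped in 2D, at 88 to 169.9 TPM in D2A1 and 117 to 135 TPM in D2.OR, and were 92.4 to 96.3 TPM and 101 to 129 TPM in 3D.

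Of 8 myoepithelial genes, 7 were called higher in D2.OR in 2D and 1 lower, among them Itgb4 (4.12), Lama3 (2.67), Acta2 (4.89) and Oxtr (2.54), with a summed level of 4.69 to 10.4 TPM in D2A1 and 17.2 to 29.8 TPM in D2.OR in 2D, and 3.58 to 10.8 TPM and 19.2 to 54.6 TPM in 3D, where 6 were called higher, none lower and 2 not. Oxtr was low in both lines in 2D (57 counts in D2.OR against 10 in D2A1), so its call is in part fixed by the filter. In 2D the 8 myoepithelial calls fell to 5 without batch 2 and to 4 without batch 3, where 24.9% and 31.8% of all genes were called. Of 12 fibroblast markers, 8 were called higher in D2.OR in 2D, none lower, 3 were not called and 1 was not tested, with summed levels of 213 to 244 TPM in D2A1 and 1537 to 2972 TPM in D2.OR in 2D, and 163 to 234 TPM and 916 to 2516 TPM in 3D, where 7 were called higher, none lower and 4 not. Col3a1 (6.8), Fap (7.48), Prrx1 (2.63) and Col1a1 (5.75) were among them. Lum, also called higher in 2D (36 against 0 counts, edgeR, adjusted p = 0.0416), and Thy1, not tested, were at 0.34 TPM or less in every library. Of 8 blood and vessel markers, Cd68 alone exceeded 1 TPM (2.22 to 32.1 TPM) and was lower in D2.OR in 2D (-2.41, edgeR, adjusted p = 0.0103). That call was lost in 5 alternatives, with the 6 libraries alone and without batch 2, batch 3 or the library of either batch of D2.OR in 2D. Hbb-bs was at 0 in all 12 libraries. In 3D none of the 3 tested was called. The part of these other markers in the keratin differences was not tested.

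Vimentin, the intermediate filament of mesenchymal cells, exceeded the summed keratins in every library. Vim was at 2482, 733 and 794 TPM in D2A1 and at 5235, 3939 and 3105 TPM in D2.OR in 2D, and it was called higher in D2.OR (log2-fold change 1.93, SE 0.24, edgeR, adjusted p = 0.000216). In 2D, D2.OR thus had higher levels of both Krt8 and Vim. Of the 13 other intermediate filament genes, 2 were called higher in 2D (Vim and Nes), 1 lower (Des, -3.14), 5 not and 5 were not tested, beside 49.8% of all genes called in either direction. Synm, next by p, was not called (0.92, edgeR, adjusted p = 0.0525). In 3D 2 were called higher, 3 lower and 3 not, beside 53.8% of all genes.

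**Figure D5:**
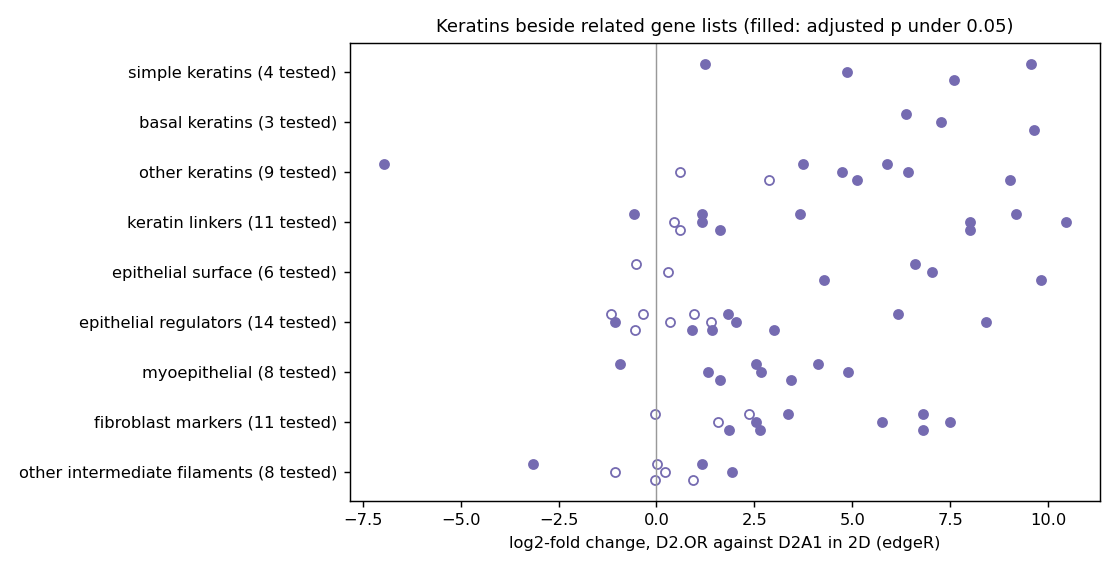
log2-fold change of D2.OR against D2A1 in 2D (edgeR) for each tested gene of the keratin lists and of the related lists, 1 row for each list, with filled points at an adjusted p under 0.05. Points of genes with 0 or few counts in a line, such as Krt6a, Ehf and Dsc2, are fitted values and do not size the difference. Krt8 is the rightmost simple keratin at 9.56, Krt10 is the far left point among the other keratins at -6.96, and the epithelial, myoepithelial and fibroblast lists hold called points above 0.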

How the data were processed

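RNA-seq of 12 libraries was used. According to the study's methods and processing notes, the authors trimmed reads with Trimmomatic 0.32, aligned them with STAR 2.5.3 to GRCm38 (GENCODE M15) and quantified genes with RSEM 1.3.0. The deposited library files hold RSEM expected counts, not normalized, in which a read that fits several genes is shared between them. The deposited TPM values were normalized by the authors for gene length and library size, and were used for levels. The strand setting is not given in the sources used here, and trimming and alignment could not be varied.

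Expected counts were rounded. Genes kept by edgeR's filter on low counts (16823 of 52550) were tested with edgeR 4.0.16 (R 4.3.3): TMM normalization, quasi-likelihood F test, group and batch in the model, all 12 libraries in 1 fit, Benjamini-Hochberg adjustment over all genes tested, and a threshold of 0.05. The SE is the log2-fold change over the square root of F. log2 CPM used a prior count of 2. Between replicates the common coefficient of variation was 21.2%. A gene with 0 counts in a group was set at a floor of 3 counts in each library. A count was called whole within 0.005.

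Batch is the replicate number in the labels, and the study's model used it. Deviations from group means correlated at a median of 0.27 (0.08 to 0.51, 18 pairs) between libraries of the same number and -0.19 (36 pairs) between different numbers.

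Alternatives were no replicate block, DESeq2 1.42.0, other scalings and filters, limma 3.58.1 on log2(TPM + 1) and log2(TPM + 0.1), the 6 libraries compared alone, and leaving out each batch or library. As a check of the code, the edgeR comparison of the lines in 2D alone was also run on simulated counts, which bears on no keratin result. The members and gene lists were chosen with earlier results of these data known. Named by rule were the 10 members, for each member at 10 CPM or more in a group the 3 genes of highest correlation, the 5 other keratins of highest mean TPM, the 4 genes of each further list of smallest p in 2D, and the blood and vessel markers above 1 TPM in any library. Other genes were named after their values were seen. Eppk1 was not found under that symbol.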

Additional observations from a re-analysis of the deposited data

Results flagged for a closer look

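In log2 CPM, the culture differences of Krt8 had opposite signs in the lines in every batch, by very little in batch 2 of D2A1. The mean difference of 3D minus 2D in log2 CPM was 0.19 in D2A1 and -1.41 in D2.OR. It was above 0 in all 3 batches of D2A1 (0.22, 0.01 and 0.34) and below 0 in all 3 batches of D2.OR (-2.04, -1.23 and -0.96). In TPM, batch 2 of D2A1 went the other way, from 0.87 to 0.78, and the fitted fold of D2A1 turned to -0.07 without its batch 3 library in 2D and to -0.32 without its batch 1 library in 3D, so the sign in D2A1 is not settled. The interaction of line and culture was -1.52 (SE 0.59, edgeR, adjusted p = 0.232) and did not pass the threshold, so that a difference between the lines was not shown by that test. It ranged from -2.04 to -1.03 over the 23 alternatives, with adjusted p from 0.0146 to 0.847, and passed in 1 of them, without batch 1. The D2A1 values rest on 50 to 158 counts in a library.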

How the results depend on the processing

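The comparisons of the lines kept their calls for Krt7, Krt8, Krt20, Krt14 and Krt15, which kept their direction and stayed under an adjusted p of 0.05 in 24 of 24 alternatives in each culture, although their size moved. Log2-fold changes ran in 2D and 3D from 8.58 to 10.01 and 7.18 to 8.75 for Krt8, 2.9 to 8.83 and 1.67 to 7.39 for Krt7, 3.15 to 5.35 and 2.89 to 4.86 for Krt20, 1.06 to 9 and 1.65 to 7.02 for Krt14, and 1.19 to 8.98 and 1.26 to 3.99 for Krt15, with the lowest values from limma on log2(TPM + 1). Krt6a kept its direction and was called in 23 of 24 in each culture, the exception in 2D being limma on log2(TPM + 1) (adjusted p = 0.0589). The number of keratins called was 6 to 8 in 2D and 5 to 7 in 3D over all alternatives. The share of all genes called ran from 24.9% to 53.8% in 2D and from 28.9% to 59.5% in 3D. The replicate block (batch as a term) changed 1 keratin call: without it Krt15 in D2A1 was not called (adjusted p = 0.0672), which left 0 keratins there, and the other counts of keratins called kept to 7 and 6 between the lines and 0 elsewhere. Without the block, 43.9% and 47.8% of all genes were called between the lines in 2D and 3D, and 0.309% between the cultures of D2A1.

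The culture comparisons depended on the settings. In D2A1 the 1 keratin called became 2 with DESeq2 (22.7% of all genes called) and 2 with no filter (3.75%), 0 with limma on log2(TPM + 1) (4.52%) and 0 with the 6 libraries alone (0.0981%), where 3 keratins were tested, and 0 to 3 when libraries were left out (36.3% of genes without batch 1). In D2.OR the count of 0 became 3 with DESeq2 (6.99%), 1 with no filter (1.39%, Krt7, adjusted p = 0.0446), 1 with the 6 libraries alone (5.16%, Krt8, adjusted p = 0.0406), and 0 to 2 when libraries were left out (8.38% of genes without batch 1). For the interaction, 0 became 2 with DESeq2 (6.08%) and 0 to 1 when libraries were left out. Without batch 2 or batch 3, 0 keratins were called between cultures in either line, and of all genes 0 in D2A1 and 0 and 1 in D2.OR, with 1537 and 1530 genes at an unadjusted p under 0.05 in D2A1 and 1221 and 1669 in D2.OR. Leaving out a batch leaves 2 libraries in a group.

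Directions that turned belonged to values that had not passed the test. Between cultures in D2A1, Krt7 became 0.06 and 0.01 with limma on log2(TPM + 0.1) and log2(TPM + 1) and 0.26 without the batch 1 library in 2D, Krt8 became -0.07 without the batch 3 library in 2D and -0.32 without the batch 1 library in 3D, and Krt20 became -0.11 without the batch 2 library in 3D. Over all libraries left out these values ran from -1.66 to 0.26 for Krt7, -0.32 to 0.69 for Krt8 and -0.11 to 1.02 for Krt20. In D2.OR, Krt20 became 0.1 without the batch 1 library in 2D and 0.14 without the batch 2 library in 3D (-0.44 to 0.14 over all libraries left out). The interaction of Krt14 became 0.61 and 0.59 with limma on log2(TPM + 0.1) and log2(TPM + 1), 0.83 without batch 2 and 0.53 without the batch 2 library of D2A1 in 3D (-5.08 to 0.83 over all left out). The interactions of Krt15 and Krt6a became 0.07 and 0.45 with limma on log2(TPM + 1), and that of Krt18 became 0.15 without batch 1 (-1.01 to 0.15 over all left out). The cause was not tested.

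For levels, CPM in place of TPM gave ratios of Krt8 to Krt18 of 0.0134 in D2A1 in 3D, 2.02 in D2.OR in 2D and 2.15 in D2.OR in 3D, against 0.0101, 1.51 and 1.61, since Krt8 transcripts are longer, and a share of Krt8 and Krt18 of 99.7% against 99.8% in D2A1 in 2D. Scaling by the library total alone moved the median log2-fold change of all genes between the lines in 2D to -0.167, and no keratin call between the lines changed.

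The same alternatives were run for the related lists after the data had been seen. Between the lines in 2D, where the main fit called 49.8% of all genes, DESeq2 43%, the filter of at least 10 counts 51.1%, the 6 libraries alone 37.5%, and the fits without batch 2 and batch 3 24.9% and 31.8%, called genes went from 3 to 5 (DESeq2, and at most 5 with a library left out) for the other intermediate filaments, from 7 to 4 for the other keratins (at least 10 counts in every library of a group, and the 6 libraries alone), from 1 to 0 for the blood and vessel markers (the 6 libraries alone, and as low as 0 with libraries left out), from 8 to 5 for the epithelial regulators without batch 2 (7 without batch 3), and from 8 to 5 and 4 for the myoepithelial genes without batch 2 and batch 3. In 3D the other intermediate filaments ranged from 3 (without batch 2 or 3, 31% and 35.2% of all genes) to 8 (without the batch 1 library of D2A1 in 2D, 59.5%), against 5 (53.8%). Krt5, Krt17 and Krt19 were not in the main fit, and Krt17 was called between the lines in 2D with no filter and with DESeq2 (adjusted p = 0.00725), on counts mostly from 1 library.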
